A study of Mus musculus with 45 samples.

Results

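The 10 genes described here carry glucose into the cell and through glycolysis: the glucose transporters Slc2a1 and Slc2a3, the hexokinases Hk1 and Hk2, the glycolytic enzymes Pfkp, Aldoa, Pgk1 and Eno1, the lactate dehydrogenase subunit Ldha and the pyruvate dehydrogenase kinase Pdk1. They were taken by symbol from 2 deposited RNA-seq tables, each listing 33924 genes, and all 10 were present and varied in both. The samples were mouse embryonic stem cells (ESCs) of the D3 line, labelled strain 129. The study's methods give ESC culture without feeder cells in medium with serum, pyruvate and leukemia inhibitory factor. All samples carried a deletion at 5430416N02Rik, a gene for a long noncoding RNA, and no wild-type RNA-seq sample was analysed here. In ΔPG cells a PGK-puro cassette had taken the place of the promoter and the gene body, whereas in ΔG cells a GFP-IRES-Puro cassette had taken the place of the gene body alone. Each line was heterozygous (het) or homozygous (hom) for its deletion, and each genotype was sampled undifferentiated (ES) or under retinoic acid (RA), which gave 8 groups of 3 samples. The paper states that cells were treated with RA and DMSO before RNA-seq, and the sample titles name no DMSO. The labels name no clone for any sample, so a difference between clones and one between genotypes cannot be told apart. Nor do they say whether the 3 samples of a group were separate cultures, so p-values measure only the spread between these samples, which may be technical.

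Glycolysis splits glucose into pyruvate, yielding ATP and building blocks for nucleotides, lipids and amino acids. The transporters let glucose in, hexokinases trap it by phosphorylation, phosphofructokinase commits it to the pathway, and lactate dehydrogenase regenerates the NAD+ that the later steps consume. Pluripotent stem cells are known for a high glycolytic rate, and many of these genes are textbook targets of the hypoxia-inducible factor HIF1 and of Myc.

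Because HIF1 binds a short core motif in the promoters of several of these genes, the 250 bases before the annotated start are shown for 5 members whose values the results below turn on. They are RefSeq sequences on GRCm38.p6, printed 5′ to 3′ on the gene's own strand. Capitals mark the core ACGTG or GCGTG on either strand (CACGT or CACGC on the reverse strand), and where 2 cores overlap in CACGTG the capitals also spell an E-box, the motif of Myc.
Slc2a1 (chr4:119108495-119108744, plus strand): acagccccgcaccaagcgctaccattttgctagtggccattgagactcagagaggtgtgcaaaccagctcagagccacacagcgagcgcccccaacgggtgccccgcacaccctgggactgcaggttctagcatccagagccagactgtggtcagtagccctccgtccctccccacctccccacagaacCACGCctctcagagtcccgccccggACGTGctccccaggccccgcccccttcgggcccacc
Hk2 (chr6:82774455-82774704, minus strand): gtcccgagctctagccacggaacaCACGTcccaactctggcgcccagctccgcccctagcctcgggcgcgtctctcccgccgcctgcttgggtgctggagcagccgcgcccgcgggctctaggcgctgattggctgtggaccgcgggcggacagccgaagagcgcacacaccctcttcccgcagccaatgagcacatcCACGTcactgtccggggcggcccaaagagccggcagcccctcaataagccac
Pfkp (chr13:6648772-6649021, minus strand): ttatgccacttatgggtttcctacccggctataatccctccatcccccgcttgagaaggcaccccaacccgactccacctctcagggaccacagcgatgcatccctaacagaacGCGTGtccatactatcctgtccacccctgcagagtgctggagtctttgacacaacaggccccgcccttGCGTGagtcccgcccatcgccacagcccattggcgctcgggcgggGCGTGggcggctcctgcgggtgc
Pgk1 (chrX:106186850-106187099, plus strand): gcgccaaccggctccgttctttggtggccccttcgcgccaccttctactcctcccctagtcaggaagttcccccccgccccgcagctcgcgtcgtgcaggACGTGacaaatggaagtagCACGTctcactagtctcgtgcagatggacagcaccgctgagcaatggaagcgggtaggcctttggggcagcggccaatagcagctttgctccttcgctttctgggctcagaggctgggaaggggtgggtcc
Ldha (chr7:46845554-46845803, plus strand, the first of 2 listed starts): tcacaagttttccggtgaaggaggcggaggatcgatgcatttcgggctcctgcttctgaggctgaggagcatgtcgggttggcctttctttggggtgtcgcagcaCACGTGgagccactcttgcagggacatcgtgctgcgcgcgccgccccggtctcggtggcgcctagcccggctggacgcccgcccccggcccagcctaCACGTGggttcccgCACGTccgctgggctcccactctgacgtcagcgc
The Pgk1 window is of further interest because the cassette in ΔPG cells is driven by the promoter of this gene. A promoter window was listed for 9 of the 10 genes, Slc2a3 being the exception. At least 1 core was found in a window of each of the 9 genes and in 13 of their 16 windows, against 38.6% of the 32851 windows of the same length in the table. The windows without a core, of Hk1, Aldoa and Pdk1, had the lowest GC content of the 16 (49.6%, 50.4% and 38.4%). The share over all windows was not matched for GC content. Some windows of Aldoa and of Eno1 overlap and hold the same cores. These matches thus describe the letters in the windows and show no enrichment, and binding was not measured.

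The values analysed are rlog values (a variance-stabilizing log2 transform of read counts), in which a difference of 1 stands for a doubling and the differences of low genes are shrunken, and counts and depths were not analysed here. Differences were tested with limma over all genes that varied in a table (21979 in ΔPG and 22048 in ΔG). A gene is said to rise, fall or differ where the Benjamini-Hochberg adjusted p was under 0.1, and to be called where the log2 difference was also over 0.5. The deleted gene, 5430416N02Rik, was lower in the hom samples of each line and state, by between 1.81 and 2.79 on the log2 scale. Pluripotency markers marked the ES samples, in which the 11 listed genes summed to 14.03 to 14.27 on the log2 scale, against 11.69 to 11.82 under RA. The sum of 8 endoderm markers went from 8.59 to 9.39 in ES samples up to 10.55 to 11.79 under RA, that of 6 fibroblast markers from 5.19 to 5.81 up to 8.65 to 9.65, and that of 6 mesoderm markers from 5.53 to 6.08 up to 6.70 to 8.13. Of the 6 mesoderm markers, 2 were called higher in each comparison of RA with ES samples and 2 (1 in ΔG hom cells) lower. In each of these comparisons 9 of the 11 pluripotency markers were called lower and 1 higher, and all 8 endoderm markers higher. Of the 6 fibroblast markers, 5 (4 in ΔG hom cells) were called higher, and 1 was called lower in both ΔPG genotypes. Of the neural markers, Pax6 (2.31 to 2.86), Nes (1.03 to 2.00) and Zic1 (0.59 to 1.04) were called higher under RA in both genotypes of both lines and Tubb3 lower (-1.56 to -0.60), while the log2 value of Neurog2 was at no more than -1.94 in any sample. The cells under RA thus differed in identity as well as in treatment, and in bulk RNA fewer cells of a type and less RNA per cell cannot be told apart.

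Levels can be compared between genes only per length, so the group mean rlog was lowered by the log2 of the exonic length in kb. On that scale Aldoa, the aldolase that splits fructose bisphosphate, ranged from 9.82 to 11.68 over the 8 groups, Pgk1 (phosphoglycerate kinase, which makes ATP) from 9.67 to 11.31, Ldha from 9.37 to 10.80, Eno1 (enolase) from 9.48 to 10.27 and Slc2a3 from 9.01 to 10.22. Slc2a1 came next with 8.40 to 9.16. The hexokinases, Pfkp (phosphofructokinase, platelet type) and Pdk1 lay lower, with Hk2 at 5.03 to 7.39, Pfkp at 3.74 to 7.79, Pdk1 at 4.70 to 6.29 and Hk1 at 3.67 to 5.48. Within a group the 3 samples of a member had an SD of 0.0024 to 0.165 (median 0.028). Aldoa, Pgk1, Ldha, Eno1 and Slc2a3 have overlapping ranges over the groups, and their order changes from group to group. The exonic length counts all annotated isoforms, so a gene with long unused exons is placed too low.

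**Figure D1:**
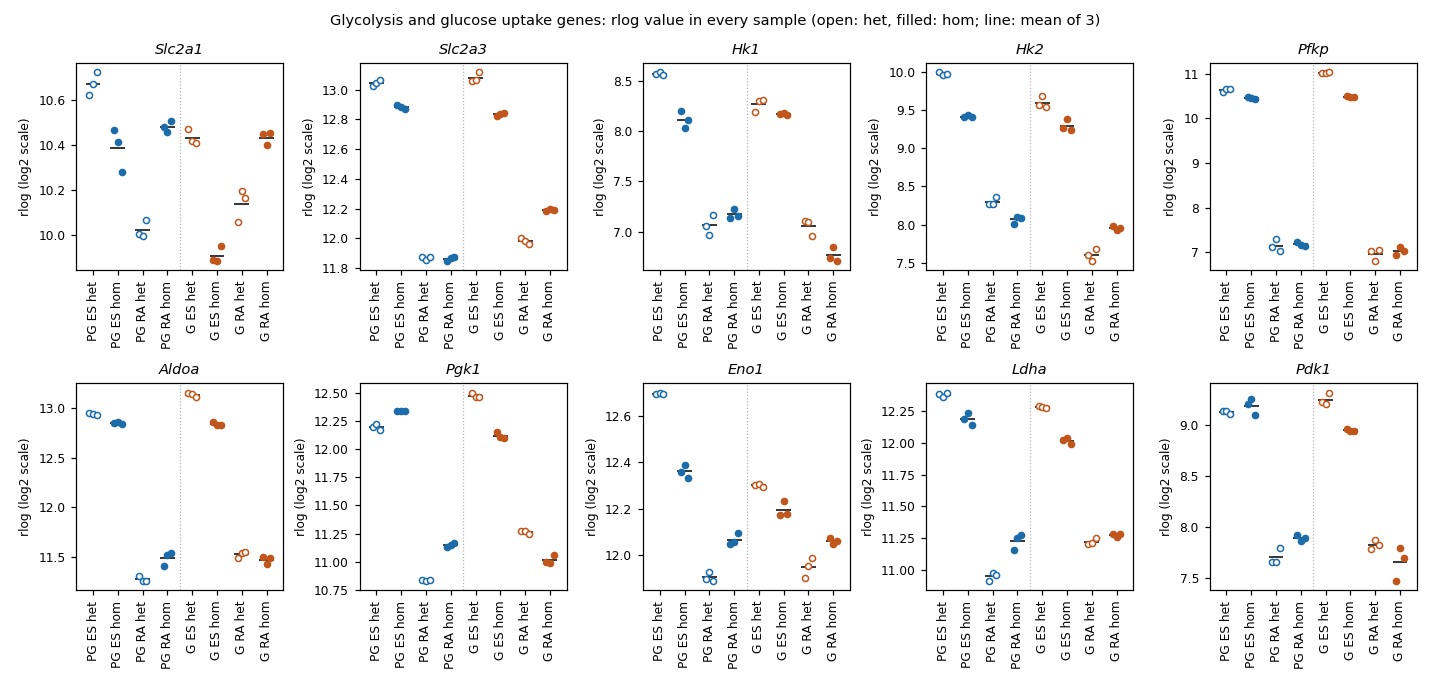
Each panel plots the rlog value (log2 scale) of a member in every sample, by line, state and genotype, with open points for het, filled points for hom, and a line at the mean of 3 samples; the vertical axes differ between panels and do not start at 0. In 8 of the 10 panels the RA samples of both lines lie well below the ES samples, in Eno1 the gap is small, and in Slc2a1 the order of the groups differs from the other panels.

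Whether RA lowered these genes was asked in both genotypes of both lines, comparing 3 RA with 3 ES samples. The fall was broad. In ΔPG het cells all 10 genes were called lower, against 13.6% of all genes tested, and in ΔPG hom cells 8 of 10, against 11.3%. In ΔG het cells 8 of 10 were called lower, against 11.7%, and in ΔG hom cells also 8, against 12.1%, while Slc2a1 was called higher there, as 17% of genes were. On the adjusted p alone, 10, 9, 10 and 9 members fell in these 4 comparisons, where 25.6%, 22.7%, 23.8% and 23.4% of all genes did. The median difference of the members was -1.43 in ΔPG het, -1.10 in ΔPG hom, -1.22 in ΔG het and -1.20 in ΔG hom cells, whereas the median of all genes lay between 0.0052 and 0.043. Quantile normalization, which forces the samples to a common distribution, moved these differences up by 0.012 to 0.54 and changed the balance of calls over all genes. In ΔPG hom cells 3634 genes were called higher and 2482 lower on the deposited scale, and 2864 and 2960 after it, in ΔG het cells 3911 and 2588 became 3042 and 3304, and in ΔG hom cells 3759 and 2675 became 2941 and 3305. The 4 comparisons are made on different samples, but each shares its samples with the comparisons of genotype given below. The fall went together with the fall of most pluripotency markers and the rise of endoderm and most fibroblast markers described above. Their part in it was not tested.

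Pfkp, which catalyses the committing step of glycolysis, showed the largest fall of the 10 genes in each of the 4 comparisons. Its rlog values were 10.59, 10.65 and 10.66 in ΔPG het ES samples and 7.12, 7.30 and 7.04 under RA. In ΔPG hom cells they were 10.48, 10.45 and 10.44 and 7.22, 7.16 and 7.15. The ES and RA samples were thus far apart, and the samples of a group lay close to each other. In ΔG het cells the values went from 11.02, 11.02 and 11.03 to 7.03, 6.82 and 7.05, and in ΔG hom cells from 10.50, 10.48 and 10.48 to 6.95, 7.11 and 7.02. The log2 difference was -3.48 (SE 0.065) in ΔPG het, -3.28 (SE 0.042) in ΔPG hom, -4.05 (SE 0.062) in ΔG het and -3.46 (SE 0.055) in ΔG hom cells, a fall of between 9.68-fold and 16.6-fold. Its 95% interval overlapped that of no other member in any of them.

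The hexokinases fell as well. Hk2, the isoform of rapidly growing cells, had values of 9.99, 9.96 and 9.97 in ΔPG het ES samples and 8.27, 8.27 and 8.37 under RA, and of 9.57, 9.68 and 9.54 and 7.60, 7.53 and 7.68 in ΔG het cells. The ES and RA samples did not overlap in either line. Its log2 difference was -1.67 in ΔPG het, -1.35 in ΔPG hom, -1.99 in ΔG het and -1.34 in ΔG hom cells (SE 0.033 to 0.061). In both lines the het cells thus showed a larger difference than the hom cells. Hk1, the housekeeping hexokinase, fell too, with differences of -1.51, -0.94, -1.22 and -1.41 in the same order (SE 0.053 to 0.073), so the het cells had the larger difference in ΔPG and the smaller in ΔG.

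Aldoa and Pgk1 fell in all 4 comparisons. Aldoa went from 12.84 to 12.95 in the 6 ΔPG ES samples down to 11.26 to 11.54 under RA, and from 12.83 to 13.16 down to 11.43 to 11.55 in ΔG cells. Its log2 differences lay between -1.67 and -1.36 over the 4 comparisons, and those of Pgk1 between -1.36 and -1.10. Eno1 moved least among the enzymes. In ΔPG het cells it went from 12.69, 12.70 and 12.69 down to 11.90, 11.93 and 11.89, and in ΔG hom cells from 12.18, 12.23 and 12.18 to 12.07, 12.05 and 12.06. It was called lower in ΔPG het cells alone (-0.79), a call lost under quantile normalization (-0.33), and its differences in ΔPG hom (-0.29) and ΔG hom cells (-0.13) turned to 0.24 and 0.21 there, while that in ΔG het cells (-0.35) went to -0.06. Gm5506, also known as Eno1b, is a near-identical copy of Eno1, and Aldoa, Pgk1 and Ldha also have retrocopies in the mouse genome, so reads may be shared with these copies and such values are uncertain.

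Ldha, which turns pyruvate into lactate, went from 12.14 to 12.40 in ΔPG ES samples down to 10.92 to 11.27 under RA, and from 11.99 to 12.29 down to 11.20 to 11.29 in ΔG samples. Its differences were -1.43, -0.96, -1.06 and -0.74 in ΔPG het, ΔPG hom, ΔG het and ΔG hom cells (SE 0.020 to 0.033). The calls in the hom cells did not hold under quantile normalization, with values of -0.49 and -0.38. Pdk1, a kinase that shuts off the pyruvate dehydrogenase complex and so keeps pyruvate out of the mitochondrial cycle, fell in the same order, with differences of -1.42, -1.30, -1.43 and -1.30, and its 12 RA samples (7.48 to 7.92) all lay below its 12 ES samples (8.94 to 9.32). Slc2a3, the high-affinity transporter of ESCs, fell too (-1.18, -1.02, -1.10 and -0.64), where the last value was -0.15 after quantile normalization and no longer called.

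Slc2a1, the widely expressed transporter GLUT1, differed from the other members, and its response to RA differed between the genotypes (tested as an interaction below). In het cells it fell, from 10.62, 10.67 and 10.72 to 10.00, 10.00 and 10.07 in ΔPG and from 10.47, 10.42 and 10.41 to 10.06, 10.20 and 10.16 in ΔG cells. In ΔPG hom cells the ES samples had 10.47, 10.41 and 10.28 and the RA samples 10.48, 10.46 and 10.51, and these overlapped. In ΔG hom cells it rose from 9.89, 9.89 and 9.95 to 10.45, 10.40 and 10.45, without overlap. The log2 differences were -0.65 (SE 0.031, adjusted p = 1.68e-06) in ΔPG het, 0.09 (95% interval -0.0041 to 0.19, adjusted p = 0.111) in ΔPG hom, -0.30 (SE 0.042, adjusted p = 5.02e-05) in ΔG het and 0.53 (SE 0.035, adjusted p = 6.28e-10) in ΔG hom cells. Only the first and the last of these were called, and both lost the call when trends with GC content were removed (-0.42 and 0.42), though not their direction. The ΔPG het value was also not called under quantile normalization (-0.41), the ΔG het value went to -0.0228 under it and no longer passed the test, and the ΔG hom value was not called with limits of adjusted p under 0.05 and 1.5-fold.

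**Figure D2:**
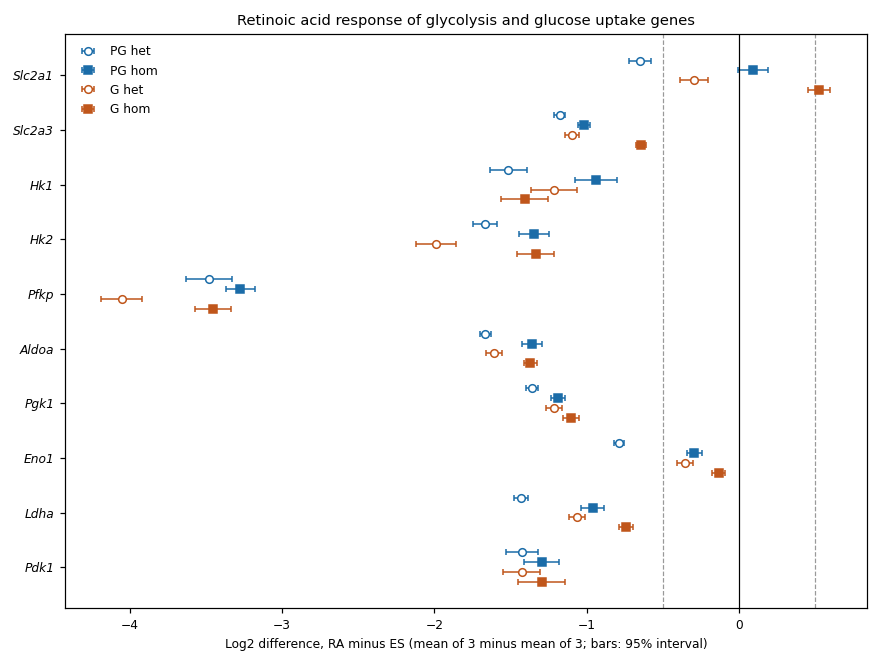
Log2 difference between RA and ES samples for each member (horizontal axis; negative values are lower under RA) in both genotypes of both lines, with open circles for het, filled squares for hom, bars for the 95% interval and dashed lines at the limit of 0.5 for a call. Pfkp lies between -4.05 and -3.28, most others between -2 and -0.6, Eno1 closer to 0, with signs in the hom cells that turn under quantile normalization, and Slc2a1 on both sides of 0.

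Each step of the pathway can be served by several isoforms, and the members were not always the isoforms that remained highest under RA. These paralogs were picked from the listed pathway genes after their values had been seen. Per kb of exon, Pfkl (the liver-type phosphofructokinase) stood at 9.04 in ΔPG het ES samples and 7.44 under RA, next to 7.40 and 3.92 for Pfkp. In ΔG het cells the same pairs were 8.73 and 7.73 for Pfkl and 7.79 and 3.74 for Pfkp. Pfkm, the muscle type, was at 5.50 and 5.06 in ΔPG het and at 5.17 and 5.32 in ΔG het cells, so Pfkp lay above Pfkm in ES and below it under RA. Among the pyruvate dehydrogenase kinases, Pdk3 rose in all 4 comparisons, by 1.44, 1.22, 1.69 and 1.45, and its level per kb passed that of Pdk1 under RA (6.76 against 4.75 in ΔPG het cells). Hkdc1, a protein with hexokinase domains, rose by between 1.33 and 1.86, but at 1.31 to 2.19 per kb under RA it stayed below Hk1 and Hk2. Eno3, the muscle enolase, rose by 0.74 to 1.60, and Ldhb fell along with Ldha (-0.70 to -1.07).

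**Figure D3:**
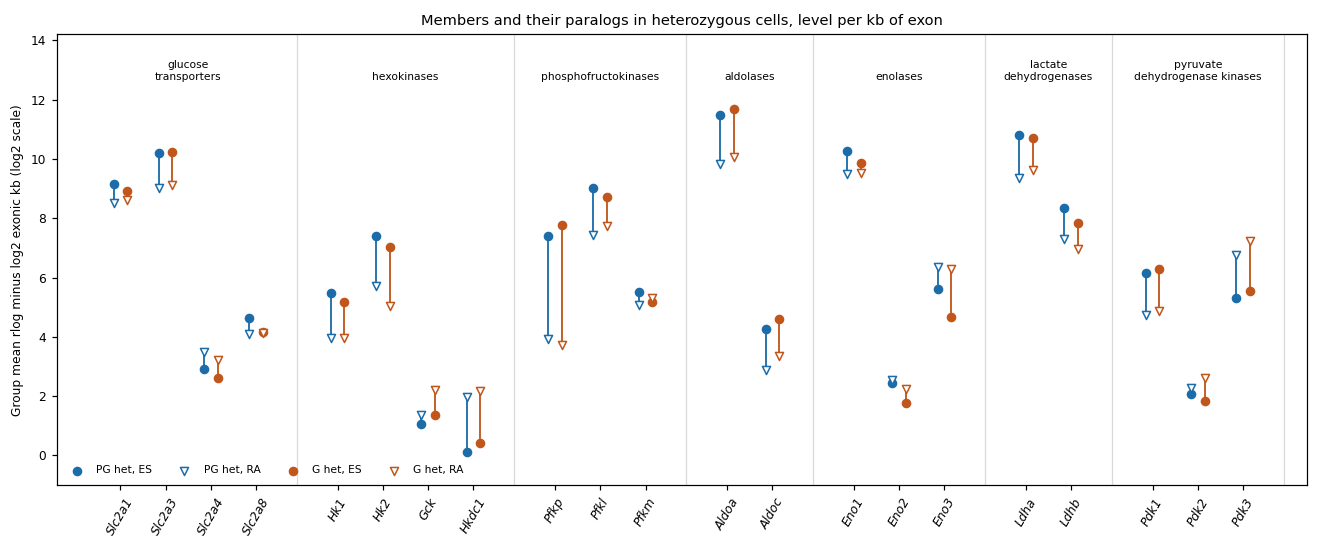
Group mean rlog minus the log2 of the exonic length in kb (vertical axis, log2 scale) for members and paralogs above 1 in any group, in ΔPG (blue) and ΔG (orange) het cells, with filled circles for ES and open triangles for RA. The longest line is that of Pfkp, which drops from 7.40 to 3.92 in ΔPG and from 7.79 to 3.74 in ΔG, whereas Pdk3, Hkdc1 and Eno3 point upward.

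The other genes of glucose metabolism moved in both directions. Of 106 further genes listed by their role, 103 were tested in ΔPG and 101 in ΔG cells. Under RA, 35 were called lower and 16 higher in ΔPG het, 28 and 13 in ΔPG hom, 33 and 18 in ΔG het and 27 and 19 in ΔG hom cells. Of all genes tested, 18%, 16.5%, 17.7% and 17% were called higher in these comparisons. The largest falls in ΔPG het cells were those of Pkm2 (pyruvate kinase, -1.82), Pdp2 (a phosphatase that switches pyruvate dehydrogenase on, -1.75) and Psat1 (serine synthesis, -1.63). In the other comparisons Brp44l, a subunit of the mitochondrial pyruvate carrier, led with -1.95, -2.45 and -2.17, joined by Pdp2 (-1.58, -1.99 and -2.16), by Bnip3 in ΔPG hom (-1.61) and by 9630033F20Rik, also known as Tigar, in ΔG cells (-1.86 in het and -1.93 in hom). Emb (embigin, a partner of lactate transporters) rose most in all 4 comparisons, by 2.88, 2.48, 3.27 and 3.37. It was followed by Hkdc1 and P4ha2 (a collagen prolyl hydroxylase, 1.49 and 1.38) in ΔPG cells, by Hkdc1 and Pdk3 in ΔG het cells, and by P4ha2 (2.25) and Mlxip (a glucose-sensing transcription factor, 1.504) in ΔG hom cells. By role, the other enzymes of upper glycolysis had 4 called lower and none higher in each comparison, with 5, 4, 4 and 4 lower at the adjusted p alone, the pentose and serine branches had 9, 5, 5 and 6 of 14 called lower, and the pyruvate entry genes 6, 6, 7 and 6 of 13, with 2, 1, 2 and 3 of these called higher. Of the other uptake and trapping genes (16 tested in ΔPG, 15 in ΔG), 4, 6, 7 and 6 were called higher and 2, 0, 1 and 0 lower, with 4, 1, 1 and 2 lower at the adjusted p in limma. The listed HIF1 regulators and targets had 7, 7, 8 and 5 of 25 called lower and 7, 3, 4 and 4 called higher.

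The second question was what the homozygous deletion changed in undifferentiated cells, comparing 3 hom with 3 het samples of a line. In ΔG cells 9 of the 10 genes fell, by small amounts. All 10 had hom samples below the het samples without overlap, as did 9% of all genes tested, and the 9 that fell at the adjusted p compare with 2.83% of all genes. No member rose, against 2.39% of genes, with 0 members higher at an unadjusted p under 0.05 in limma. Of the 9, 2 were called, Pfkp and Slc2a1, where 0.63% of all genes were called lower and 0.354% higher (139 and 78 genes, or 76 and 69 after quantile normalization). The median difference of the 10 was -0.30, with the median of all genes at -0.0057. Listed pluripotency markers had a median difference of -0.0074 in this comparison, with 2 of 11 lower and 2 higher. The endoderm sum was 8.99 to 9.06 in het and 8.59 to 8.73 in hom samples. That of mesoderm was 5.83 to 5.91 and 5.53 to 5.69, while the neural and fibroblast sums overlapped. At the adjusted p, 1 of 8 endoderm markers was lower, 1 of 6 neural markers was higher and no mesoderm marker differed. The part of these markers in the result was not tested.

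Pfkp had values of 11.02, 11.02 and 11.03 in ΔG het and 10.50, 10.48 and 10.48 in ΔG hom ES samples, a log2 difference of -0.54 (SE 0.018, 1.45-fold lower, adjusted p = 3.64e-05). For Slc2a1 the values were 10.47, 10.42 and 10.41 against 9.89, 9.89 and 9.95, a difference of -0.53 (SE 0.03, adjusted p = 0.000216). The samples of each genotype lay close together, and for both genes the lowest het sample stood well above the highest hom sample. Pgk1 followed with 12.50, 12.46 and 12.47 against 12.15, 12.11 and 12.10, a difference of -0.36 (adjusted p = 0.000167). The differences of Hk2, Pdk1 and Aldoa were each -0.30, that of Ldha was -0.27, that of Slc2a3 -0.24 and that of Eno1 -0.11, and all 6 passed the test. Under quantile normalization 7 members were lower at the adjusted p, and Eno1 was at -0.04. Over 12 alternatives, Eno1 passed the adjusted p in 9 (highest 0.147) and Hk2 in 10 (highest 0.138). Pdk1 and Aldoa passed in 11 each (highest 0.137 and 0.106), while Pfkp, Slc2a1, Pgk1, Ldha and Slc2a3 passed in all 12. On the deposited scale Hk1 did not pass the limma test, with -0.10 (95% interval -0.21 to 0.01, adjusted p = 0.408). With limits of adjusted p under 0.05 and 1.5-fold, neither Pfkp nor Slc2a1 was called, since both differences are below 1.5-fold.

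In ΔPG cells, where far more genes differed between the genotypes, the shift was less uniform. Of the 10 genes, 8 fell and 1 rose at the adjusted p, against 19.2% and 16.8% of all genes, and the same 8 had hom samples below the het samples without overlap, against 20.9%. Hk2 alone was called lower, where 6.29% of genes were called lower and 6.87% higher. Its values were 9.99, 9.96 and 9.97 in het and 9.40, 9.43 and 9.41 in hom samples, a difference of -0.56 (SE 0.024, 1.47-fold lower, adjusted p = 2.95e-06). Hk1 fell by 0.46, from 8.58, 8.59 and 8.57 to 8.21, 8.03 and 8.11. Both hexokinases were thus among the larger differences in ΔPG cells, while in ΔG cells Hk1 did not pass the test. Eno1 fell by 0.34, Ldha by 0.19, Pfkp by 0.18 and Slc2a3 by 0.16. Slc2a1 (-0.29) and Aldoa (-0.09) were lower too, but when trends with GC content were removed their differences became 0.02 and 0.25, Hk1 went to -0.15, Eno1 to -0.07 and Ldha to -0.04 (the last no longer passing), the call of Hk2 was lost (-0.37), and 5 members were lower and 2 higher at the adjusted p. Pdk1 had a difference of 0.06 (95% interval -0.04 to 0.16, adjusted p = 0.358). Of the 11 pluripotency markers, 7 were lower and 2 higher in this comparison, with a median difference of -0.24 beside -0.19 for the 10 genes. The neural markers Tubb3 (-0.72) and Nes (-0.65) were called lower as well, and the endoderm sum was 9.36 to 9.39 in het and 8.95 to 9.02 in hom samples. The part of these markers in the result was not tested.

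Pgk1 was the member that rose. Its het samples stood at 12.19, 12.22 and 12.17 and its hom samples at 12.34, 12.34 and 12.34, a difference of 0.14 (SE 0.016, adjusted p = 0.000237) that went to -0.01 under quantile normalization. In ΔG cells the same gene was lower in hom samples. The ΔPG cassette carries the PGK promoter, hom cells hold the cassette on both alleles, and a part of the cassette in these reads was not tested.

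**Figure D4:**
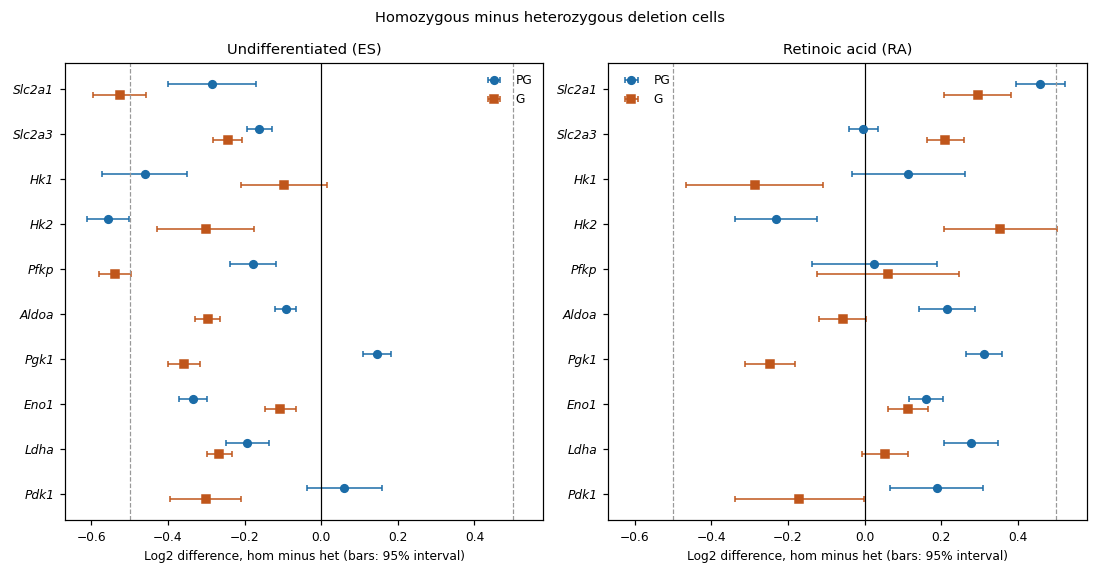
Log2 difference between hom and het samples (horizontal axis; negative values are lower in hom) for each member in undifferentiated (left) and RA-treated cells (right), in ΔPG (blue circles) and ΔG (orange squares), with bars for the 95% interval and dashed lines at the limit of 0.5. In the left panel all ΔG values and 8 of 10 ΔPG values are below 0, of which Slc2a1 and Aldoa in ΔPG turn positive when GC trends are removed and Pgk1 in ΔPG turns to -0.01 under quantile normalization, and in the right panel the values lie on both sides of 0.

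Since many of the 10 genes are known HIF1 targets, 25 listed regulators and targets of HIF1 were compared in the same samples. In ΔG ES cells 10 of the 25 were lower in hom samples and 1 was higher at the adjusted p, with 7 called, each of them lower, and a median difference of -0.21. The called genes, named here after their values had been seen, were Ndrg1 (-1.18), P4ha2 (-1.07), Ddit4 (-0.95, an inhibitor of mTOR signaling), Egln3 (-0.89, a prolyl hydroxylase that marks HIF1 for destruction), Bnip3 (-0.81, a mitophagy receptor), P4ha1 (-0.63) and Egln1 (-0.50). Hif1a itself, whose activity is set mainly by the stability of its protein, was higher (0.21, adjusted p = 0.0355). After quantile normalization 9 of the 25 were lower and 1 higher, and with GC trends removed 12 of 22 were lower and 2 higher. Over all 101 further pathway genes in ΔG cells 10 were called, each of them lower, with 23 lower and 4 higher at the adjusted p, and the called genes outside the HIF1 list were Pfkfb3 (-0.66, which makes the activator of phosphofructokinase), the lactate exporter Slc16a3 (-0.55) and G6pc3 (-0.52).

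In ΔPG ES cells the HIF1 list did not move one way. Of 25 genes, 8 rose and 4 fell, with Bnip3 (0.81), Ero1l (0.75), Bnip3l (0.60) and Hif1a (0.53, but -0.05 with GC trends removed) called higher and Egln2 (-0.66) called lower. Among all 103 further pathway genes 11 were called lower, led by Pgls (pentose phosphate pathway, -0.83), Gm5506 (-0.75) and Pcx (pyruvate carboxylase, -0.69), and 6 higher, led by Bnip3, Ero1l and Brp44l (0.74). Of all genes tested, 6.29% were called lower and 6.87% higher. With GC trends removed, 2 of the further pathway genes were called lower and 2 higher.

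**Figure D5:**
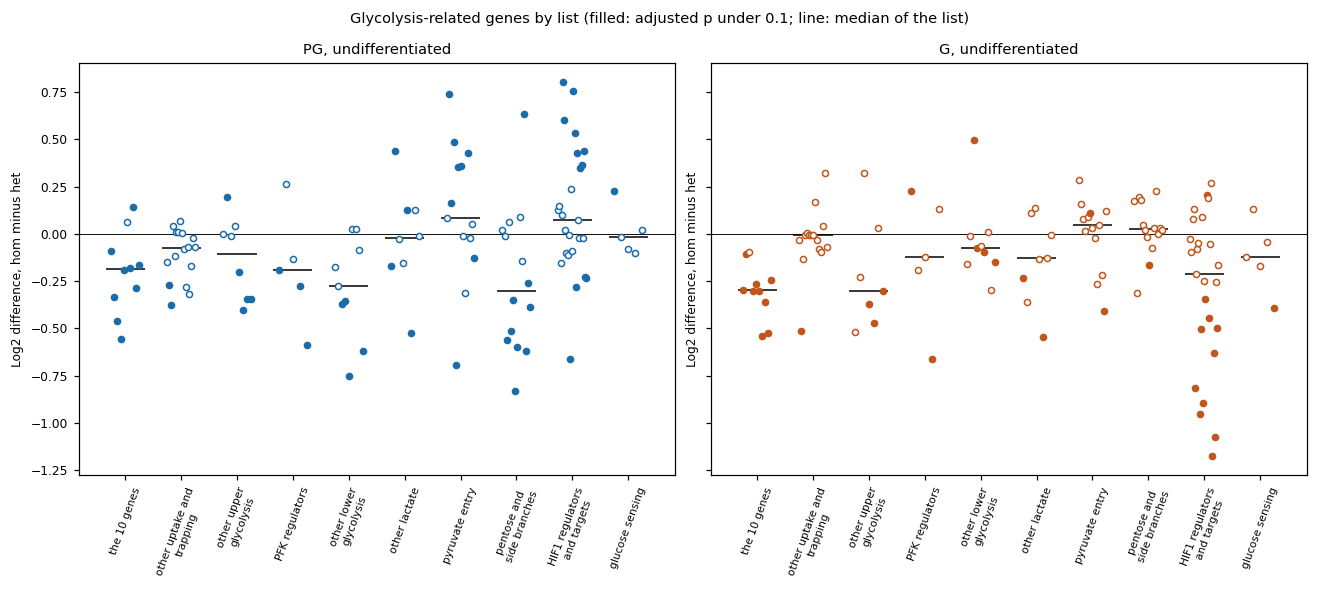
Log2 difference between hom and het ES samples (vertical axis) for each tested gene of the 10 and of the further lists by role, in ΔPG (left) and ΔG (right), filled where the adjusted p was under 0.1, with a line at the median of each list. In ΔG the 10 genes lie at or below -0.10 and the HIF1 list reaches -1.18, whereas in ΔPG the HIF1 list lies on both sides of 0 with Hif1a at 0.53 there but at -0.05 when GC trends were removed.

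After RA no member was called between the genotypes of either line. In ΔPG cells 5 genes rose and 1 fell at the adjusted p, against 2.36% and 2.22% of all genes, while 0.241% of genes were called higher and 0.605% lower. At an unadjusted p under 0.05, limma had 6 members higher and 1 lower. In ΔG cells 4 rose and 2 fell at the adjusted p, against 4.85% and 6.18%, with 0.676% of genes called higher and 1.46% lower, and 4 members were higher and 3 lower at an unadjusted p under 0.05. Slc2a1 rose in both lines. Its RA samples stood at 10.00, 10.00 and 10.07 in ΔPG het and 10.48, 10.46 and 10.51 in ΔPG hom cells, a difference of 0.46 (SE 0.029, adjusted p = 2.34e-05). In ΔG cells they were 10.06, 10.20 and 10.16 against 10.45, 10.40 and 10.45, a difference of 0.30 (SE 0.042, adjusted p = 6.95e-05). The hom samples were above the het samples in both lines, whereas in ES cells they were below them, though in ΔPG ES cells the difference became 0.02 with GC trends removed. Eno1 was also higher in both lines, by 0.16 and 0.11. In ΔPG cells quantile normalization left 3 members higher and 2 lower at the adjusted p, with Eno1 at 0.06 and Aldoa at 0.10 no longer passing.

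Other members differed between the lines under RA. Pgk1 was higher in ΔPG hom samples (11.13, 11.15 and 11.16 against 10.84, 10.83 and 10.84, a difference of 0.31) and lower in ΔG hom samples (11.00, 10.98 and 11.06 against 11.27, 11.27 and 11.24, -0.25). Hk2 was lower in ΔPG hom (-0.23, adjusted p = 0.0311) and higher in ΔG hom samples (0.35, adjusted p = 0.00242). The lines were normalized in separate tables, and the difference between them was not tested. Ldha and Aldoa rose in ΔPG cells, by 0.28 and 0.22, and did not pass the test in ΔG cells (0.05 and -0.06). Slc2a3 rose in ΔG cells (0.21), with a ΔPG value of -0.0032 (95% interval -0.04 to 0.04). Hk1 fell in ΔG cells (-0.29), but passed an adjusted p under 0.1 in only 8 of 12 alternatives (highest 0.154). Pfkp, which differed by 0.54 between the ΔG genotypes before RA, had a difference of 0.06 (95% interval -0.12 to 0.25) after it. Of the further pathway genes, Hkdc1 (-0.65) was called lower in ΔPG hom cells, and Txnip (-0.70, an inhibitor of glucose uptake), Aldoc (-0.52), Arrdc4 (-0.51) and Bnip3 (-0.51) in ΔG hom cells. Of 8 endoderm markers, 5 were lower in ΔPG hom and 3 in ΔG hom cells under RA and none was higher. In ΔG hom cells 1 fibroblast marker was called lower, and 1 neural and 1 mesoderm marker higher. The fibroblast sum there was 8.65 to 8.81, against 9.54 to 9.65 in het cells. In ΔPG hom cells 1 fibroblast and 1 pluripotency marker were called lower, and no neural or mesoderm marker was called. The part of these differences in cell identity was not tested.

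Whether the RA response differed between the genotypes was tested as an interaction, the RA difference in hom cells minus that in het cells, over the 12 samples of a line. The interaction does not test a change of order, and it uses the same samples as the comparisons above. It was positive, meaning a smaller fall or a larger rise in hom cells, for 9 of 10 members in ΔPG at the adjusted p (15.2% of all genes) and for 8 of 10 in ΔG (2.67%). In ΔPG cells 2 were called, Slc2a1 at 0.74 (SE 0.059, adjusted p = 6.95e-07) and Hk1 at 0.57 (SE 0.081), where 6.72% of genes were called higher, and both fell below the limit when GC trends were removed, to 0.44 and 0.27. Eno1 (0.50) and Ldha (0.47) came just under the limit and were called under quantile normalization, while Aldoa (0.31) went to -0.03 with GC trends removed. In ΔG cells 3 were called, Slc2a1 at 0.82 (SE 0.056, adjusted p = 4.04e-11), Hk2 at 0.66 (SE 0.085) and Pfkp at 0.60 (SE 0.084), against 1.19% of genes. Slc2a1 was the member called in both lines. Pdk1 did not pass in either line (0.13 and 0.13), nor did Hk1 in ΔG (-0.19, 95% interval -0.40 to 0.02). Of the further pathway genes, 9 were called in ΔG cells, each of them higher, led by Pfkfb3 (1.09), Ndrg1 (0.78) and Slc16a3 (0.77). In ΔPG cells 13 of 103 were called higher, led by Gm5506 (0.89), Pkm2 (0.85) and Pgls (0.77). Another 6 were called lower, led by Brp44l (-0.89), Plod2 (-0.87) and Ero1l (-0.80). Of all genes tested in ΔPG cells, 6.72% were called higher and 7.19% lower. With GC trends removed, 1 higher and 4 lower calls were found among the further pathway genes.

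Across the 12 samples of each line, the members ran closely together apart from Slc2a1. The correlation of each gene with the mean centered profile of the 10 was computed over the samples of each line, which fall into ES and RA clusters, so it mostly reflects that split. The lower of the 2 correlations was 0.997 for Aldoa, 0.996 for Ldha and 0.994 for Pfkp, and ranged from 0.939 to 0.988 for Pdk1, Slc2a3, Pgk1, Hk1, Hk2 and Eno1. Each member is part of that mean, so its own correlation is partly built in. Among 8957 genes Aldoa, Ldha and Pfkp ranked 1 to 3, Pdk1 14 and Slc2a3 18. Pgk1 ranked 129, Hk1 174, Hk2 230 and Eno1 688, so many genes outside the 10 followed the profile more closely than these. Slc2a1 had 0.674 in ΔPG and -0.107 in ΔG cells. Of the 8957 genes compared, those outside the 10 with the most similar profile were Upp1 (uridine phosphorylase) and Tpi1 (triose phosphate isomerase) with 0.993 each, Lars (leucyl-tRNA synthetase) with 0.992, Pecam1 (an adhesion molecule) with 0.991 and Ildr1 with 0.99.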

How the data were processed

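RNA was measured in 24 samples, 12 of each line. As the study's methods and the submitters' processing notes state, the authors sequenced rRNA-depleted, stranded, paired-end libraries, trimmed reads with Trim Galore 0.4.2, aligned them to NCBI37/mm9 with TopHat2 2.1.0 and Bowtie2 2.2.9, removed duplicates with Picard, counted reads per GENCODE vM1 gene with HTSeq 0.6.0 and transformed the counts with DESeq2 1.14.1. The deposited values are rlog values on the log2 scale, which shrink differences of low genes, in 1 table per line. Counts and depths were not used here, so the depth is unknown. Whether the transformation knew the groups is not given in the sources used here.

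Groups came from the sample titles. Each comparison used limma 3.58.1 in R 4.3.3 with a variance trend over every gene that varied in the table, on the 6 samples compared, or on all 12 for the interaction, with Benjamini-Hochberg adjustment over all genes. Tests stayed within a table. Calls needed an adjusted p under 0.1 and a log2 difference over 0.5, the script having been tested on simulated data. P-values measure the spread between these samples. The 10 genes, the lists and the markers were chosen with earlier results of these data known. All 10 genes were described in each comparison, and from the other listed genes up to 3 called in each direction were named per comparison, with Hif1a, the deleted gene and the 5 genes of most similar profile (mean rlog of at least 5); further names were chosen after their values were seen. Newer symbols that differ in the tables were matched by hand, such as Tigar to 9630033F20Rik. Alternatives were all 12 samples in the fit, an adjusted p under 0.05 with 1.5-fold, no limit on the difference, a mean rlog of at least 3, quantile normalization, removal of trends with exonic GC content (lowess span 0.3), a replicate block and leaving out each sample. Promoters were read from RefSeq (GRCm38.p6), and exonic lengths from GENCODE vM1.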

Additional observations from a re-analysis of the deposited data

Results flagged for a closer look

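The response to RA differed between the genotypes of a line by more than 0.5 on the log2 scale and passed limma's interaction test over 12 samples for 4 of the 10 genes. In ΔPG cells the difference of the responses, hom minus het, was 0.74 on the log2 scale for Slc2a1 (adjusted p = 6.95e-07) and 0.57 for Hk1 (adjusted p = 0.000109). In ΔG cells it was 0.82 for Slc2a1 (adjusted p = 4.04e-11), 0.66 for Hk2 (adjusted p = 1.18e-05) and 0.60 for Pfkp (adjusted p = 3.57e-05). Of these, the ΔPG values went below the limit of 0.5 with GC trends removed. Over all genes, 6.72% were called higher and 7.19% lower in the ΔPG interaction, and 1.19% and 1.18% in that of ΔG.

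Hom and het samples differed in opposite directions in the 2 lines for 2 genes, with no overlap between the genotypes within a line. Over all genes, hom samples lay above het samples without overlap for 18.7% in ΔPG ES, 9.93% in ΔPG RA and 10.1% in ΔG RA cells. They lay below for 9% in ΔG ES, 8.87% in ΔPG RA and 11.7% in ΔG RA cells. Pgk1 differed by 0.14 in ΔPG and -0.36 in ΔG ES cells, and by 0.31 in ΔPG and -0.25 in ΔG cells under RA, where the ES value in ΔPG became -0.01 under quantile normalization. Hk2 differed by -0.23 in ΔPG and 0.35 in ΔG cells under RA, where the ΔPG value passed an adjusted p under 0.1 in 7 of 12 alternatives (highest 0.139). The difference between the lines was not tested, since their tables were transformed separately. Groups of 3 samples were too small for a search for single outlying samples.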

How the results depend on the processing

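Of 1400 values of single members under the alternatives, 1326 kept their side of the limits and 53 passed the limits in addition. Another 15 no longer passed, and 6 that had passed the adjusted p turned in direction. Values that had not passed the adjusted p count among the 1326 even where their sign changed. Such sign changes were seen for Slc2a3 and Pfkp in ΔPG RA, Pdk1 in ΔPG ES, and Pfkp and Aldoa in ΔG RA. The counts of members called under RA against ES moved by less than 1.5 times in all 4 comparisons. In the other comparisons the number called changed as follows. With an adjusted p under 0.05 and 1.5-fold it went from 1 to 0 in ΔPG ES, from 2 to 0 in ΔG ES and from 2 to 1 in the ΔPG interaction. Without a limit on the difference it became 9 in ΔPG ES, 6 in ΔPG RA, 9 in ΔG ES, 6 in ΔG RA, 9 in the ΔPG interaction and 8 in the ΔG interaction. Quantile normalization gave 2 in ΔPG ES and 4 in the ΔPG interaction, and removal of GC trends 0 in both. Leaving out single samples gave 1 to 2 in ΔPG ES (2 without hom ES replicate 1) and 2 to 4 in the ΔPG interaction (4 without hom RA replicate 1).

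The values that had passed and turned with GC trends removed were Slc2a1 (0.0209) and Aldoa (0.25) in ΔPG ES. Aldoa in the ΔPG interaction (-0.0341) did so too. Those that turned under quantile normalization were Pgk1 in ΔPG ES (-0.00618) and Eno1 under RA in ΔPG hom (0.24) and ΔG hom cells (0.21). The cause was not tested.

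Over all genes, removal of GC trends lowered the calls from 2893 to 865 in ΔPG ES and from 3056 to 1122 in the ΔPG interaction, with 11904 genes tested. The stricter limits gave 117 calls in place of 217 in ΔG ES, 275 of 471 in ΔG RA and 268 of 524 in the ΔG interaction. Without a limit on the difference the calls were 7926, 1006, 1152 and 2433 for ΔPG ES, ΔPG RA, ΔG ES and ΔG RA, 12607, 11424, 12012 and 11772 for RA in ΔPG het, ΔPG hom, ΔG het and ΔG hom cells, and 6387 and 1164 for the interactions. Samples with the same replicate number showed little shared deviation (correlations from -0.026 to 0.085). No pairing by number was found, but with 3 samples per group this cannot exclude one. The replicate block gave 112 calls over all genes in place of 186 in ΔPG RA and 44 in place of 217 in ΔG ES. With the block the members called numbered 1 in ΔPG ES and 2 in ΔG ES, as without it, and it changed no call of a member. On the adjusted p alone, the falls of Eno1, Hk2, Pdk1 and Aldoa in ΔG ES did not pass in every alternative.

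The main limits are clones that the labels do not name, 3 samples per group, unknown depth and the shrinkage of the transformed values, and in ΔPG ES cells the differences that depend on GC content.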

Other observations

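Several genes of the branches that leave glycolysis also fell under RA. Of 14 genes of the pentose phosphate, serine and glycerol branches, named here after their values had been seen, Psat1, an enzyme of serine synthesis, fell in all 4 comparisons, with log2 differences of -1.63 in ΔPG het, -1.49 in ΔPG hom, -1.63 in ΔG het and -1.72 in ΔG hom cells. Psph, which completes serine synthesis, had -1.36, -0.89, -1.02 and -1.33 in the same order, and G6pdx, the entry enzyme of the pentose phosphate pathway, -0.65, -0.65, -0.60 and -0.94. In undifferentiated ΔPG cells 5 of the 14 were called lower and 1 higher in hom samples, among them Pgls (-0.83), Rpia (-0.62), Phgdh (-0.60) and H6pd (-0.52), and with GC trends removed 2 of 13 were called lower and none higher. In ΔG ES cells limma called none of the 14, with 1 lower at the adjusted p. Among the genes that sense glucose, Mlxip rose under RA by 0.94, 1.24, 1.17 and 1.504.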
